A study of Mus musculus with 294 samples.

Results

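The late contractile genes of smooth muscle described here are Myh11, Mylk, Actg2, Lmod1, Cnn1 and Smtn, 6 of the 15124 genes in the deposited raw count table. They were taken by name, and their level in each single cell was expressed in CPM, the reads of the gene per 1000000 reads of that cell. The cells came from the embryonic mouse heart, from the region around the septum that divides the outflow tract, and carried a Wnt1-Cre driver with a R26-EYFP reporter. Wnt1-Cre acts in the neural crest and leaves EYFP on in all descendants, so an EYFP-positive cell is one with a neural crest ancestor, whatever it has become; RNA of the reporter itself was not analysed here. The series was collected at 4 ages from E11.5 to E17.5, with E14.5 and E12.5 between them, to profile these cells as the heart develops. All cells share this tissue, genotype and EYFP-positive sort, and received no treatment. No stage, animal or chip is given for a single cell, so the cells formed 1 group, which was treated as 1 sample, and no test was possible. Cells that were not single on the chip image, or whose cDNA was of low quality, had been left out by the submitters.

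Smooth muscle contracts when calcium and calmodulin switch on myosin light chain kinase, the product of Mylk, which phosphorylates the light chains of the smooth muscle myosin whose heavy chain Myh11 encodes. That myosin pulls on actin filaments built in part from the smooth muscle actins of Acta2 and Actg2. Leiomodin 1, from Lmod1, nucleates those filaments, calponin 1, from Cnn1, binds them and damps the myosin ATPase, and smoothelin, from Smtn, binds them in contractile cells. Around the outflow tract, neural crest cells give rise to the smooth muscle of the great arteries and to mesenchyme of the septum and valves. Acta2 and Tagln are switched on early on that path, and Myh11 is regarded as a late and specific marker. Serum response factor, with its partner myocardin, drives many of these genes through a short motif named the CArG box.

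Promoter sequence was available for Lmod1, Cnn1, Smtn and Mylk. The 200 bases that end 51 bases before the RefSeq start on GRCm38.p6 were searched on both strands for the CArG box with at most 1 mismatch. Lmod1 and Cnn1 are shown because they differ in this search and in how widely they were found. The Lmod1 window (chr1:135324563-135324762, plus strand) held 2 matches with 1 mismatch each, in capitals. The Cnn1 window (chr9:22099003-22099202, plus strand) held none.
Lmod1: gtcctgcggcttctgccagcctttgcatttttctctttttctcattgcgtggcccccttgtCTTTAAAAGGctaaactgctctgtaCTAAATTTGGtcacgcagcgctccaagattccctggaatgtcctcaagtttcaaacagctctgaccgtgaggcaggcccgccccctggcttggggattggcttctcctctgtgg
Cnn1: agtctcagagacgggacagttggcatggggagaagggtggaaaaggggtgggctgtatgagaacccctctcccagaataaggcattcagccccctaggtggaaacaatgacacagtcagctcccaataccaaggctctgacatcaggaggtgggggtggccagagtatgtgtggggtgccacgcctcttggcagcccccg
The windows of Smtn and Mylk held no match either, and none of the 4 held an exact CArG box. The Smtn and Mylk windows lie within the loci given below, so each stands for 1 start of its gene, and other starts were not searched. Among 32851 RefSeq promoters, 15.2% held a match with at most 1 mismatch in a window of this length, and 1.16% held an exact one. These matches describe letters and not bound sites.

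Read totals ranged from 34046 to 3033857 per cell, with a median of 1204540. Cells whose names begin with the same digit are called a name series here; there are 7, with 58, 48, 38, 38, 34, 34 and 44 cells in the order of the digit. What the digit means is not given, and the study defines no groups by it. Series 1 stood apart: its median cell had 7718 genes with a read against 3123 to 4676.5 in the others, and reads of abundant genes occurred at a low level in nearly all of its cells. Myh11 had at least 1 read in 86.2% of series 1 cells and Actg2 in 100%, with medians of 1.92 and 5.38 CPM in the cells below the call level. A gene was therefore called in a cell at 100 CPM or more in series 1 and at 10 CPM or more elsewhere. In series 1 the highest uncalled Myh11 value was 54.3 CPM and the lowest called one 140.5 CPM, while for Cnn1 the values were 98.1 and 107.96 CPM. In series 2 to 7 they were 8.65 and 15.1 CPM for Myh11, and 9.39 and 11.2 CPM for Cnn1. Values in parentheses after a share are its exact 95% interval (Clopper-Pearson), and those after a median are its 95% interval from order statistics. They cover counting error only, and without molecular identifiers 2 reads may come from the same molecule.

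Myh11 (ENSMUSG00000018830.10, chromosome 16, 14194535 to 14291372, minus strand, GENCODE M21 on GRCm38), the motor itself, was the rarest of the 6. It was called in 22 cells, 7.48% of all (4.75% to 11.1%), at a median of 362.3 CPM (140.5 to 749.7). The 9 called cells of series 1 ran from 140.5 CPM over a median of 385.96 to 991.6 CPM. In series 2, 10 cells ran from 15.1 CPM over a median of 739.7 to 1089 CPM, and the pair in series 3 had 98.5 and 174.1 CPM. Outside these series Myh11 was called in a single cell, of series 7, at 20.5 CPM. Its highest levels in series 4, 5 and 6 were 0.831, 8.65 and 1.33 CPM, and no cell out of 38, 34 and 34 was called, which allows shares of up to 9.25%, 10.3% and 10.3%. The shares were 15.5% in series 1 (7.35% to 27.4%), 20.8% in series 2 (10.5% to 35.0%), 5.26% in series 3 (0.644% to 17.7%) and 2.27% in series 7 (0.0575% to 12.02%).

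Mylk (ENSMUSG00000022836.11, chromosome 16, 34745210 to 35002420, plus strand), the kinase that switches this motor on, had nearly the same distribution over the name series. It was called in 29 cells, 9.86% (6.71% to 13.9%), at a median of 181.97 CPM (82.8 to 271.5). The shares in series 1, 2 and 3 were 17.2% (8.59% to 29.4%), 22.9% (12.03% to 37.3%) and 15.8% (6.02% to 31.3%). The 10 called cells of series 1 ran from 104.9 to 1899 CPM with a median of 223.1, the 11 of series 2 from 12.9 to 496.5 CPM with a median of 58.1, and the 6 of series 3 from 54.7 to 588.5 CPM with a median of 170.9. Series 4, 5 and 6 had no called cell, with a highest level of 4.22 CPM in series 4 and no Mylk read at all in series 5 and 6. Series 7 had 2 called cells, at 201.6 and 339.7 CPM. The motor gene and its kinase were thus found almost wholly in the same name series, in 21 of 22 and 27 of 29 called cells.

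Actg2 (ENSMUSG00000059430.14, chromosome 6, 83512905 to 83536265, minus strand), the smooth muscle actin known best from visceral muscle, was found in every name series. It was called in 62 cells, 21.1% (16.6% to 26.2%), at a median of 300.5 CPM (174.5 to 440.8) and up to 4357 CPM. The shares for series 1 to 7 were 31.03%, 27.1%, 18.4%, 15.8%, 5.88%, 20.6% and 20.5%, and the interval of the lowest, series 5 (0.720% to 19.7%), overlapped with that of series 1 (19.5% to 44.5%) only at its upper edge. Called cells stood well clear of the others outside series 1, where the highest uncalled value was 8.10 CPM and the lowest called one 24.3 CPM. Exact matches were not shared with the other muscle actins: none of the 1284 windows of 50 bases, the read length, in the Actg2 transcript occurs in the transcripts of Acta2, Acta1 or Actc1. Of the 77 cells with Acta2 at 1000 CPM or more, 32 had Actg2 under 10 CPM and 19 had no Actg2 read, among them a cell with 13139 CPM of Acta2. In the other direction, 9 of the 62 Actg2 cells had Acta2 under 10 CPM, and in 15 the Actg2 level in CPM was above that of Acta2.

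Lmod1 (ENSMUSG00000048096.7, chromosome 1, 135324807 to 135368065, plus strand), the filament nucleator, was called in 35 cells, 11.9% (8.43% to 16.2%), at a median of 102.5 CPM (36.4 to 156.2). Series 2 held 15 of these cells, 31.2% of its own (18.7% to 46.3%), from 10.6 to 2437 CPM with a median of 92.7. The share was 12.1% in series 1 (4.99% to 23.3%) and 6.82% to 10.5% in series 3, 4, 5 and 7. Series 1 has the higher call level. At 100 CPM in both, Lmod1 was called in 7 of 48 cells of series 2 (14.6%) and 7 of 58 of series 1 (12.1%). Its 3 called cells in series 3 were all low, at 12.3, 14.3 and 20.6 CPM. No read of Lmod1 was found in the 34 cells of series 6, which allows a share of up to 10.3%. Without series 2, Lmod1 was called in 8.13% of cells.

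Cnn1 (ENSMUSG00000001349.5, chromosome 9, 22099216 to 22109630, plus strand), calponin 1, was the most widely found and had a different order of the name series. It was called in 38.1% of cells (32.5% to 43.9%), at a median of 174.5 CPM (141.7 to 214.1). The shares were lowest in series 1, 2 and 3, at 24.1% (13.9% to 37.2%), 27.1% (15.3% to 41.8%) and 23.7% (11.4% to 40.2%), and highest in series 7, at 61.4% (45.5% to 75.6%), and series 4, at 57.9% (40.8% to 73.7%). Series 5 and 6 lay between, at 47.1% and 32.4%. The interval of series 7 lay above those of series 2 and 3, and that of series 4 lay above that of series 3. Both also lay above that of series 1, which was called at 100 CPM and not at 10 CPM. With 100 CPM required in every series, the shares for series 1 to 7 were 24.1%, 18.8%, 13.2%, 42.1%, 23.5%, 23.5% and 40.9%. Series 4 and 7 thus remained the highest, though no intervals were taken at that level. The median level in called cells ran from 109.4 CPM in series 3 to 308.02 CPM in series 2.

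Smtn (ENSMUSG00000020439.17, chromosome 11, 3517523 to 3540612, minus strand), smoothelin, was spread most evenly at the call levels used. It was called in 72 cells, 24.5% (19.7% to 29.8%), at a median of 105.5 CPM (62.8 to 156.8). The shares for series 1 to 7 were 25.9%, 37.5%, 21.1%, 26.3%, 17.6%, 14.7% and 22.7%, and all 7 intervals overlapped. This evenness depends on the higher call level of series 1. At 100 CPM in every series, the shares were 25.9%, 18.8%, 5.26%, 13.2%, 8.82%, 0% and 9.09%. Smtn had no level above 450.8 CPM in any cell, whereas each of the other members passed 1000 CPM in at least 1. Exons of Smtn and of Mylk overlap exons of annotated genes on the other strand, Gm11946 and Gm11947 for Smtn, and E130310I04Rik and Gm21691 for Mylk. None of these is a row of the table, and whether counting used strand was not stated, so reads of these partners may be among those of Smtn and Mylk.

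**Figure D1:**
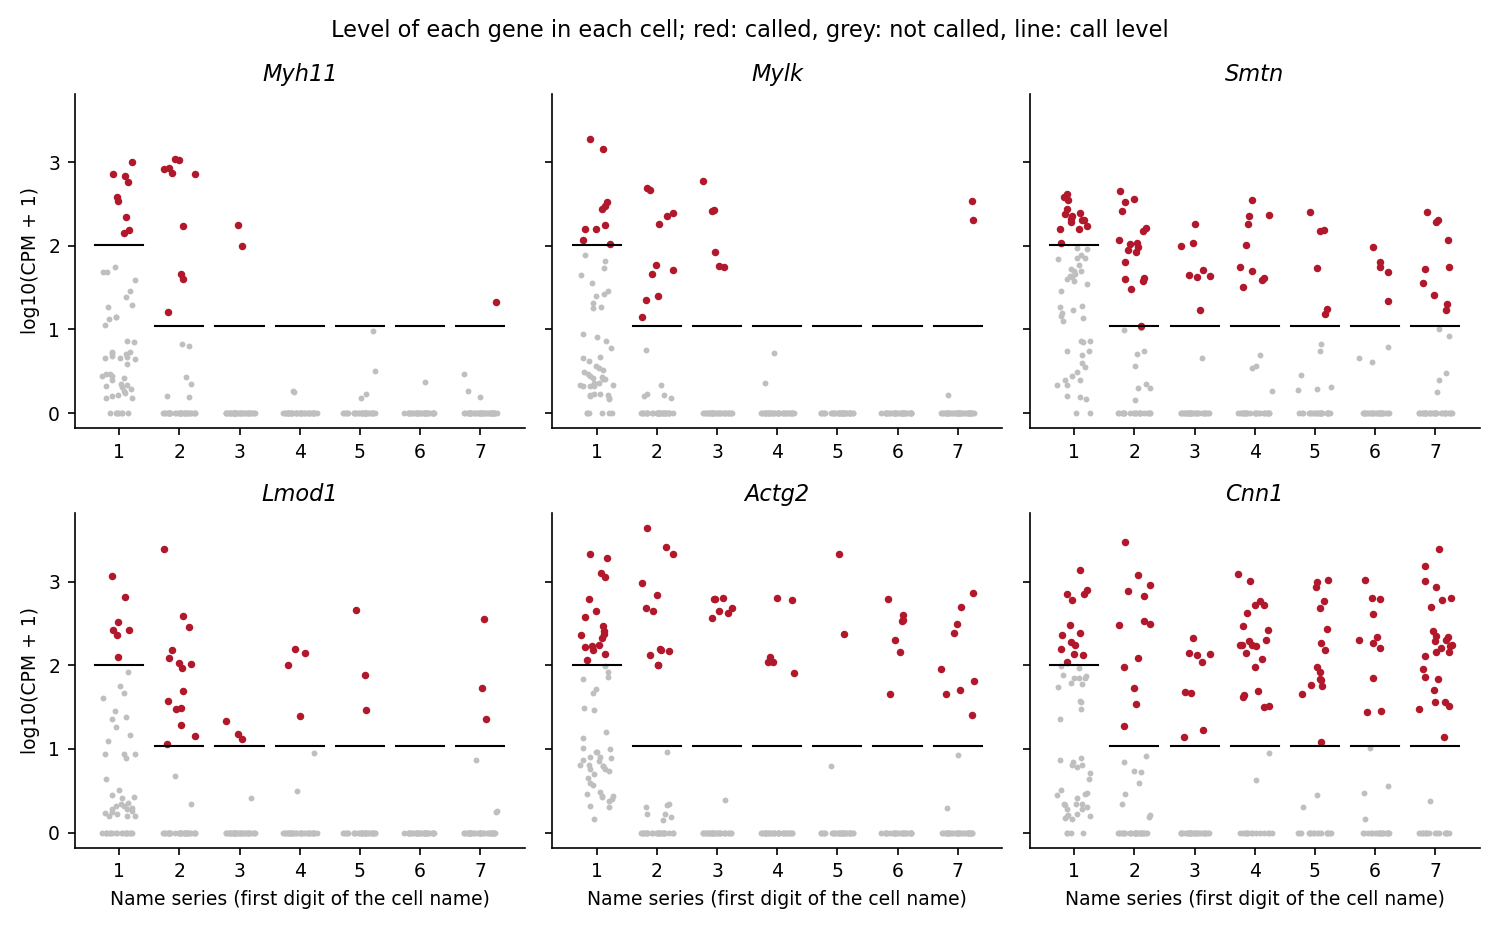
Level of each gene in every cell, as log10(CPM + 1), by name series; each point is 1 cell, red points are called, grey points are not, and the black line is the call level (100 CPM in series 1, 10 CPM in the others). Myh11 and Mylk have red points almost only in series 1 to 3, while Cnn1 has them in all series and most densely in series 4 and 7; the low grey haze of series 1 is seen for all 6 genes.

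Levels between genes can be compared only per length of transcript. Divided by the length of their annotated exons, the median levels in called cells were 192.98 CPM per kb for Actg2, 63.8 for Cnn1, 47.7 for Myh11, 25.96 for Lmod1, 24.1 for Smtn and 16.2 for Mylk. Averaged over all cells, Actg2 was at 76.5 and Cnn1 at 50.7 CPM per kb, and Smtn, Lmod1, Myh11 and Mylk were at 8.56, 7.57, 4.69 and 2.75. Acta2, on the same scale, had a mean of 520.4 CPM per kb. The medians of called cells depend on the higher call level of series 1. Over series 2 to 7 alone they were 221.1 CPM per kb for Actg2, 62.8 for Cnn1, 22.9 for Myh11, 16.2 for Mylk, 16.1 for Lmod1 and 14.6 for Smtn, so the lower part of the order changed. Actg2 was the highest of the 6 per length in both, although it was called in fewer cells than Cnn1 and Smtn.

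Most cells had few of the genes. None of the 6 was called in 41.5% of cells (35.8% to 47.4%), 1 in 83 cells, 2 in 53, 3 in 20, 4 in 4, 5 in 5 and all 6 in 7 cells, 2.38% (0.963% to 4.84%). At least 3 were called in 36 cells, 12.2% (8.73% to 16.5%). By name series these were 9 of 58 cells in series 1 (15.5%), 13 of 48 in series 2 (27.1%), 6 of 38 in series 3 (15.8%), 2 of 38 in series 4 (5.26%), 2 of 34 in series 5 (5.88%), 1 of 34 in series 6 (2.94%) and 3 of 44 in series 7 (6.82%). Series 1 was called at 100 CPM and the others at 10 CPM, so the share of series 1 cannot be ranked against theirs. With 100 CPM in every series the share over all cells fell to 7.14%. The interval of series 2 (15.3% to 41.8%) overlapped with those of all other series at least at its lower edge. All 12 cells with 5 or more of the genes were in series 1, 2 and 3, with 3, 7 and 2 cells. Cells with none of the genes were most common in series 3, at 63.2% (45.99% to 78.2%), and least common in series 7, at 22.7% (11.5% to 37.8%), so series 7 combined many cells with 1 or 2 of the genes and few with more.

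**Figure D2:**
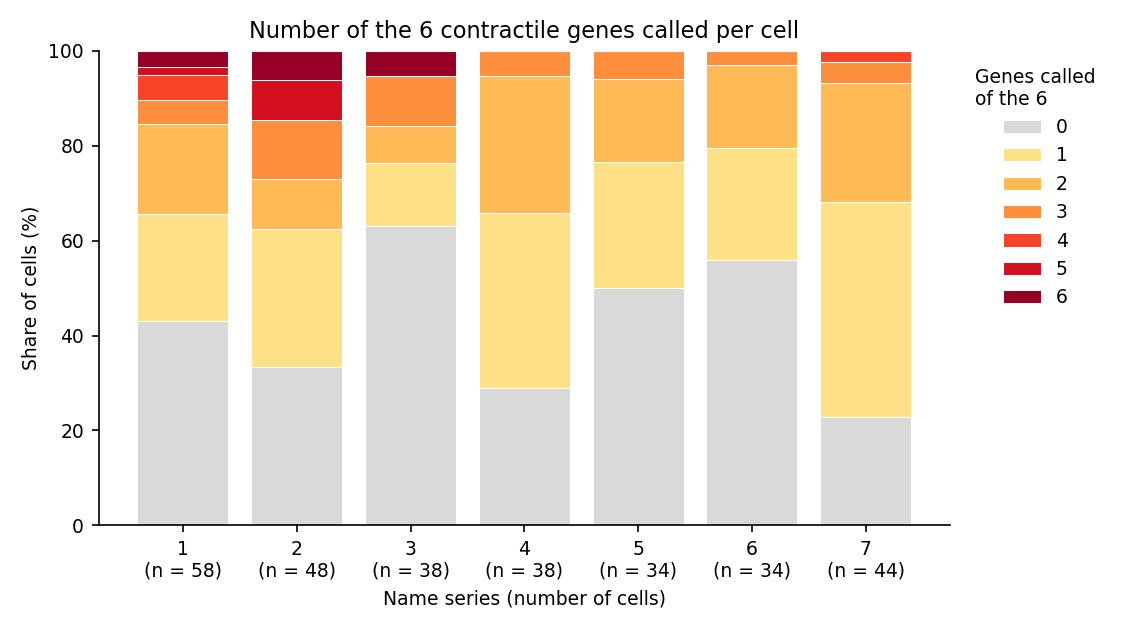
Share of cells (vertical axis, %) with 0 to 6 of the 6 contractile genes called, for each name series with its number of cells; each colour is a number of genes. The dark bands for 5 or 6 genes occur in series 1, 2 and 3 alone, and series 4 and 7 have the smallest shares without any of the genes, 28.9% and 22.7%.

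The 7 cells with all 6 genes spanned a wide range of levels. Cell C154 of series 1 had 678.5 CPM of Myh11, 271.5 of Mylk, 213.8 of Actg2, 663.8 of Lmod1, 1393 of Cnn1 and 247.03 of Smtn, with Acta2 at 20395 CPM. Cell C212 of series 2 had 843.7 CPM of Myh11, 496.5 of Mylk, 4357 of Actg2, 122.2 of Lmod1, 2961 of Cnn1 and 328.8 of Smtn, with Acta2 at 19921 CPM. Both cells of this kind in series 3 had far less Acta2, 3140 CPM in C364 and 4634 CPM in C370, and their Lmod1 was at 12.3 and 14.3 CPM, near the call level. The high cells were thus not alike in the balance of the genes: Cnn1 exceeded Actg2 in C154, and Actg2 exceeded Cnn1 in C212.

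Cells with 5 of the genes lacked different ones. Cell C136 of series 1 had Mylk at 1899 CPM, the highest value of that gene, Actg2 at 2173 CPM and Lmod1 at 1158 CPM, with Myh11 at 3.87 CPM, below the call level. Cell C262 of series 2 had the reverse, Myh11 at 1054 CPM with no Mylk read, although with only 133793 reads in all. Cell C240 of series 2 lacked Smtn (0.993 CPM) beside 729.7 CPM of Myh11. In series 4 to 7, 8 cells had 3 or 4 of the genes, and 7 of these had Actg2 and Cnn1 with Smtn or Lmod1. The remaining one, C775 of series 7, had Myh11, Mylk, Actg2 and Cnn1. Within a name series, cells with 3 or more of the genes had median totals of 1496310, 1717290 and 663404 reads in series 1, 2 and 3, against 1701740, 1574870 and 598143 in cells with none. The genes with a read per cell were 7528, 4658 and 4446.5 in the median, against 7691, 4078 and 2947, so they differed most in series 3.

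**Figure D3:**
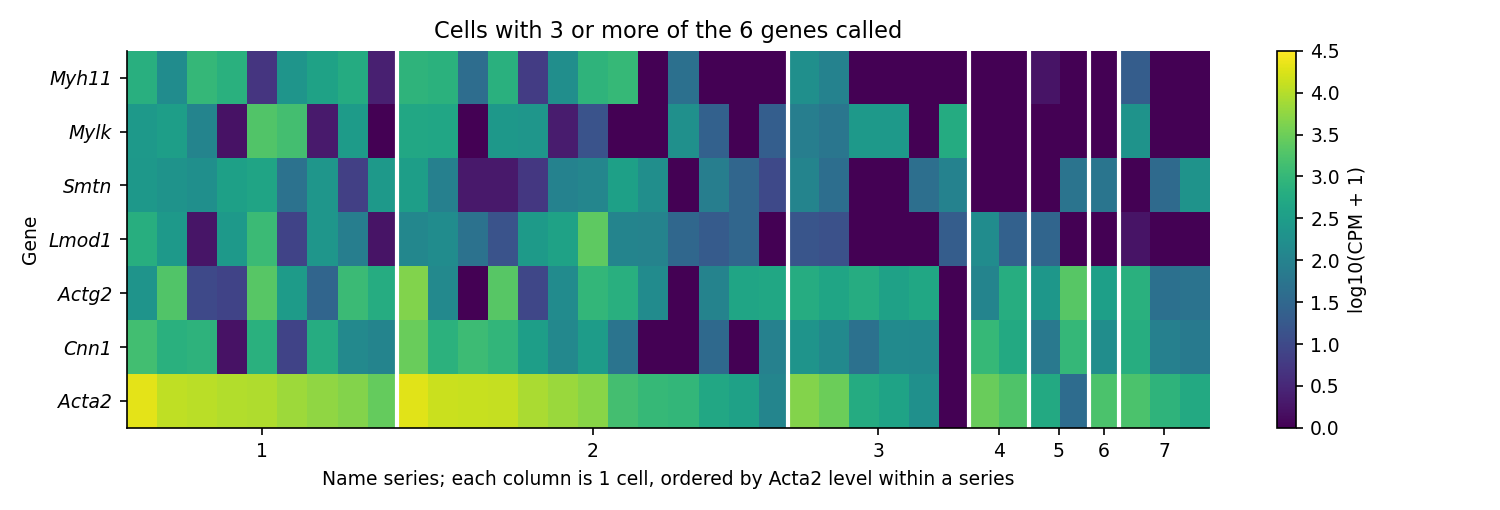
Levels of the 6 genes and of Acta2 (rows), as log10(CPM + 1) by colour, in the 36 cells with 3 or more of the genes called (columns), ordered by Acta2 within each name series and separated by white lines. The bright upper rows of series 1 and 2 show Myh11 and Mylk in their high Acta2 cells, while in series 4 to 7 those rows are dark in all but 1 cell and Actg2 and Cnn1 carry the signal.

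Joint detection was measured for the 15 pairs of genes as the number of cells with both, set against the number that the product of their shares within each name series would give. All 15 pairs occurred together more often than the product. For reference, this was so for 66.5% of all 21480735 pairs among 6555 genes with shares in the range of the members, and 1.10 was the median ratio of those pairs against 2.30 for the members. A ratio of 2 or more was found in 8 of the 15 pairs and in 1.1% of all pairs. The highest ratio was for Myh11 and Lmod1, together in 16 cells against 4.44 by the product, a ratio of 3.61. These 16 cells were 72.7% of the Myh11 cells and 45.7% of the Lmod1 cells. Myh11 and Mylk were together in 14 cells, a ratio of 3.33, which was 63.6% of the Myh11 cells and 48.3% of the Mylk cells.

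Myh11 and Mylk each also had high ratios with Cnn1 (2.51 and 2.49) and with Actg2 (2.30 and 2.37), and Mylk with Lmod1 reached 2.47. Actg2 and Lmod1, the actin and its nucleator, were together in 19 cells, a ratio of 2.31. Pairs with Smtn had the lowest ratios. Smtn and Cnn1 were together in 37 cells against 26.8 by the product, a ratio of 1.38, and Smtn with Mylk, Actg2, Lmod1 and Myh11 had ratios of 1.42, 1.499, 1.55 and 1.78. Actg2 and Cnn1 shared more cells than any other pair, 38, at a ratio of 1.75. Genes with large shares cannot reach a large ratio, so the ratios of Cnn1 and Smtn are bounded more tightly than those of Myh11. Actg2, called in 62 cells against 72 for Smtn, nevertheless had ratios of 2.30, 2.37 and 2.31 with Myh11, Mylk and Lmod1. Those of Smtn with the same genes were 1.78, 1.42 and 1.55.

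The relation between Cnn1 and the motor genes was not even. Of the Cnn1 cells, 24 (21.4%, 14.2% to 30.2%) also had Myh11 or Mylk and 43 (38.4%, 29.4% to 48.1%) had none of the other 5 genes. In series 1, 2 and 3, Myh11 or Mylk was called in 7 of 14 (23.04% to 76.96%), 11 of 13 (84.6%, 54.6% to 98.1%) and 5 of 9 (55.6%, 21.2% to 86.3%) Cnn1 cells. In series 4, 5, 6 and 7 it was called in 0 of 22 (up to 15.4%), 0 of 16 (up to 20.6%), 0 of 11 (up to 28.5%) and 1 of 27 (3.70%, 0.0937% to 18.97%). The median of Cnn1 in its called cells was 235.8, 308.02 and 109.4 CPM in series 1, 2 and 3, where series 1 has the higher call level, and 176.1, 122.7, 199.6 and 169.8 CPM in series 4 to 7. Cnn1 alone, with none of the other 5, made up 11 of 22 and 14 of 27 Cnn1 cells in series 4 and 7 and 1 of 13 in series 2. From the other side, 13 of 37 cells with Myh11 or Mylk had no Cnn1 call, 7 of them in series 1.

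Over all name series together, the genes differed in how much Acta2 their cells carried. Acta2, the actin switched on early in the smooth muscle path, had a median of 5296 CPM in Myh11 cells, 3140 in Mylk cells, 2657 in Lmod1 cells, 1550 in Actg2 cells, 587.2 in Cnn1 cells and 559.8 in Smtn cells. In cells with none of the 6 the median was 2.61 CPM. Acta2 reached 1000 CPM in 19 of 22 Myh11 cells, 86.4% (65.1% to 97.1%), and in 48 Cnn1 cells, 42.9% (33.5% to 52.6%), and these intervals did not overlap. Both sets share cells and differ in their mix of name series. Within series 1 the numbers were 8 of 9 Myh11 cells and 13 of 14 Cnn1 cells. Within series 2 they were 8 of 10 and 10 of 13, so the difference was not seen within either series. In series 4, where Myh11 was not called, 8 of 22 Cnn1 cells reached 1000 CPM of Acta2. Of the 12 cells with 5 or more of the genes, 11 were above 1000 CPM, and the remaining one, C244 of series 2, had 500.0 CPM. The converse did not hold, since 9 of the cells with none of the genes also had Acta2 at 1000 CPM or more, up to 4065 CPM.

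The cells of all name series together were then set in order of Acta2. With Acta2 under 100 CPM (47.3% of cells), from 100 to 1000 CPM (78 cells), from 1000 to 5000 CPM (62 cells) and at 5000 CPM or more (15 cells), Myh11 was called in 0.719%, 2.56%, 12.9% and 73.3% of cells. Mylk was called in 2.88%, 6.41%, 17.7% and 60%, and Lmod1 in 4.32%, 10.3%, 16.1% and 73.3%. Actg2 was called in 7.91%, 15.4%, 46.8% and 66.7% of cells, a step that came at a lower Acta2 level than for Myh11. Cnn1 was called in 18.7%, 48.7%, 56.5% and 86.7%, with a step already between the lowest ranges. Smtn had the flattest course, 16.5%, 23.1%, 35.5% and 60%. At least 3 of the genes were found in 1.44%, 12.8%, 17.7% and 86.7% of cells. The highest range rests on few cells and name series: 7 of its 15 cells were in series 1, 7 in series 2 and 1 in series 6. The steps belong to the pool, since the series differed. From 100 to 1000 CPM of Acta2, Cnn1 was called in 1 of 18 cells in series 1 and 2 of 10 in series 2. It was called in 5 of 10 in series 3 and in 66.7% to 88.9% in series 4 to 7. Series 1 was called at 100 CPM and the others at 10 CPM, and the medians of Cnn1 in series 4 to 7 were 48.6, 65.5, 27.2 and 66.9 CPM. Part of the gap to series 1 thus comes from the call level. Mean Cnn1 levels in this range were 12.4, 14.1 and 35.2 CPM in series 1 to 3 and 127.1, 229.4, 133.7 and 346.5 CPM in series 4 to 7. From 1000 to 5000 CPM, Myh11, Mylk and Lmod1 were called in 3, 3 and 4 of 8 cells in series 2. The numbers were 2, 4 and 1 of 25 in series 1, at its higher call level.

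**Figure D4:**
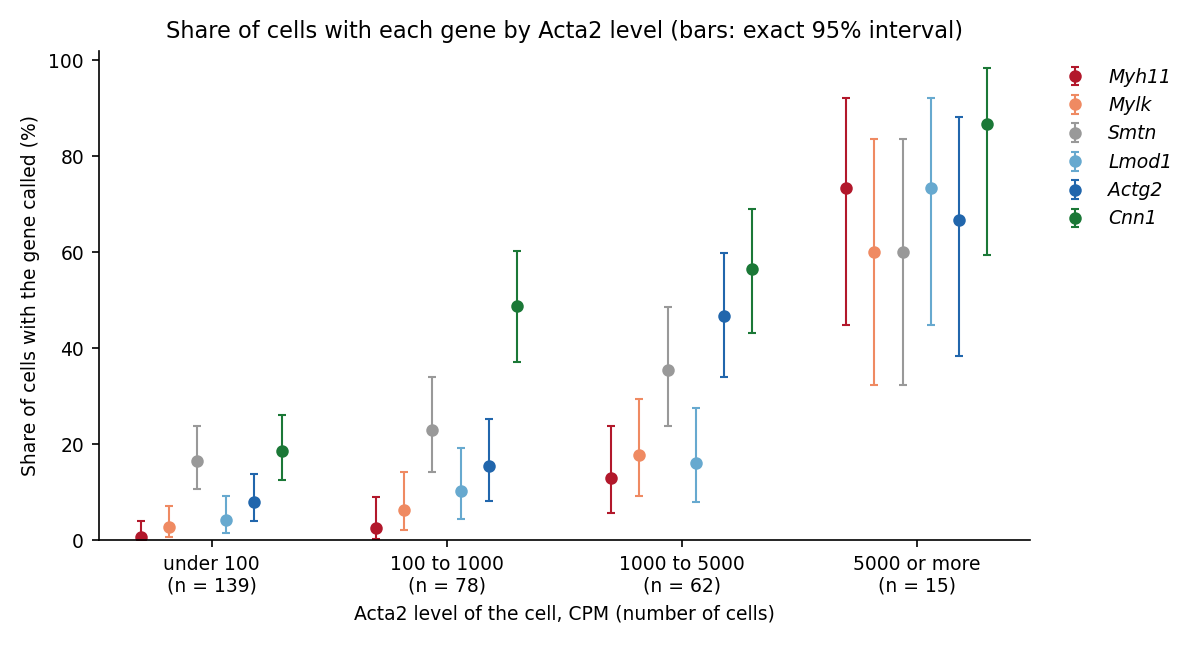
Share of cells with each gene called (vertical axis, %) in 4 ranges of Acta2 (horizontal axis, CPM, with the number of cells); points are shares over all name series and bars are exact 95% intervals. In this pool Cnn1 is already at 48.7% from 100 to 1000 CPM of Acta2, whereas Myh11, Mylk and Lmod1 stay under 20% until 5000 CPM is passed. Single name series, which are not drawn, differ from this course.

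Since the name series differ in Acta2, the same was read within each of the 4 series with at least 5 cells on both sides. Cnn1 was called in 13 of 32 cells with Acta2 at 1000 CPM or more and in 0 of 8 cells under 100 CPM in series 1, in 10 of 15 and 1 of 23 in series 2, in 8 of 9 and 6 of 18 in series 4, and in 11 of 13 and 8 of 22 in series 7. Myh11 was called in 8 of 32 and 0 of 8 cells in series 1 and in 8 of 15 and 1 of 23 in series 2, but in 0 of 9 and 0 of 18 in series 4 and in 1 of 13 and 0 of 22 in series 7. With equal weight to these 4 series, the share at high Acta2 exceeded that at low Acta2 by 51.7 percentage points for Cnn1, 37.0 for Actg2, 26.4 for Smtn, 23.9 for Lmod1, 20.4 for Myh11 and 15.3 for Mylk. Series 2 carried much of this for some genes: without it the values were 6.26 points for Mylk, 10.9 for Myh11 and 12.5 for Lmod1. For Lmod1 it was 34.8 points without series 7, where 0 of 13 cells with high Acta2 and 2 of 22 with low Acta2 had it.

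High Acta2 alone did not go with the same genes in all name series. Among cells with Acta2 from 1000 to under 5000 CPM, Acta2 itself was close, with means of 2165, 2747, 2505 and 1920 CPM in series 1, 2, 4 and 7 and 25, 8, 9 and 13 cells. Cnn1 was called in 8 of 9 of these cells in series 4 (88.9%, 51.8% to 99.7%) and in 11 of 13 in series 7 (84.6%, 54.6% to 98.1%), against 8 of 25 in series 1 (14.9% to 53.5%) and 3 of 8 in series 2 (37.5%, 8.52% to 75.5%). The intervals of series 1 and series 7 did not overlap. The call level is 100 CPM in series 1 and 10 CPM in the others, but the mean Cnn1 level in these cells shows the same order, 85.4 and 82.7 CPM in series 1 and 2 and 403.4 and 412.6 CPM in series 4 and 7. Myh11 went the other way, with 2 of 25 and 3 of 8 cells in series 1 and 2 and 0 of 9 and 1 of 13 in series 4 and 7, at mean levels of 41.4, 372.2, 0.0861 and 1.62 CPM. The intervals of these Myh11 shares overlap, so at this number of cells the shares cannot be told apart. Actg2 was called in 13 of 25, 4 of 8, 3 of 9 and 4 of 13 cells, with intervals that all overlap.

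**Figure D5:**
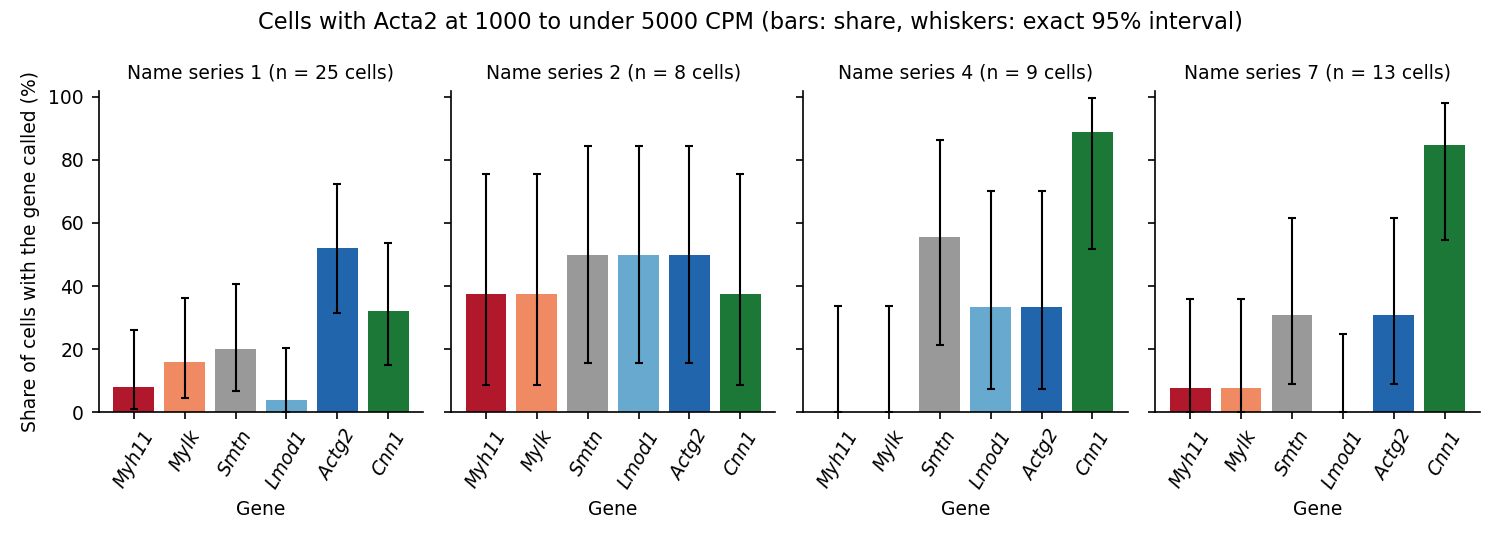
Share of cells with each gene called (bars, %) among cells with Acta2 from 1000 to under 5000 CPM in the 4 name series with at least 5 such cells; whiskers are exact 95% intervals. Cnn1 is the tallest bar in series 4 and 7, at 88.9% and 84.6%, and Myh11 and Mylk are absent or at 1 of 13 cells there.

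Levels were compared in the same 4 series, as the mean CPM with equal weight to each series and 10 CPM added to both sides. All 6 genes were at least 2-fold higher in the cells with Acta2 at 1000 CPM or more than in those under 100 CPM. Among all 8852 genes other than Acta2 that reached 10 CPM in at least 10% of cells, 4.07% were 2-fold or more higher and 4.7% were 2-fold or more lower. All 6 passed this filter, Myh11 at 11.6% of cells, and since a rare gene can pass through the cells in which it is high, the count is a description. Actg2 was 15.4-fold higher, and Myh11 was 12.6-fold higher, at 124.99 against 0.672 CPM. Lmod1 was 7.68-fold, Cnn1 6.96-fold (381.5 against 46.3 CPM), Mylk 4.34-fold and Smtn 2.37-fold higher. The median of the 6 on the log2 scale was 2.87, against -0.06 over all genes tested. The size depended on the name series: the fold of Myh11 was 12.1 in series 1 and 34.5 in series 2 but 1.00 in series 4 and 1.15 in series 7, and that of Cnn1 was 5.59, 45.2, 4.38 and 5.17. Without series 2 the folds of Myh11, Lmod1 and Actg2 were 5.11, 3.72 and 8.15, without series 7 that of Actg2 was 24.6, and without the cell C249 alone that of Lmod1 was 4.80. Smtn was below the bound without series 1, at 1.92-fold.

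The genes that act beside the 6 were read list by list in the same comparison. Of 13 earlier contractile and filament genes tested, 8 were at least 2-fold higher with high Acta2 and 0 lower. They were Tagln, which encodes the actin-binding transgelin (6.31-fold), the light chain genes Myl9 (5.89-fold) and Myl6 (2.09-fold), the tropomyosins Tpm2 (3.63-fold) and Tpm1 (2.98-fold), Synpo2 (2.78-fold), Vcl (2.45-fold) and Actn1 (2.08-fold). Pdlim7, Cald1, Csrp1, Flna and Des lay between 1.08-fold and 1.77-fold. Of 15 genes that set the sensitivity of contraction to calcium, 2 were higher and 0 lower: Ppp1r14a, an inhibitor of myosin phosphatase, at 2.19-fold, and Dapk3, a kinase, at 2.40-fold. Of 12 transcriptional regulators, 2 were higher and 0 lower, Heyl, a target of Notch signalling, at 4.18-fold and Prdm6 at 3.52-fold. Myocd, which encodes myocardin, was at 1.84-fold (17.1 against 4.78 CPM), Srf at 1.25-fold and Klf4, a repressor of contractile genes, at 0.958-fold. Of 7 channel and receptor genes, 1 was higher, Gucy1a3, a subunit of the nitric oxide receptor, at 3.36-fold.

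Of 12 relatives of the members that are not specific to smooth muscle, 3 were 2-fold or more higher with high Acta2 and 0 lower. These were Actc1, Cnn2 and Tmod2 (2.04-fold). Among all genes tested 4.07% were higher. Myh9 and Myh10, the heavy chains of non-muscle myosin, were 1.79-fold and 1.58-fold higher with high Acta2, against 12.6-fold for Myh11. Among the calponins Cnn2 was 2.32-fold and Cnn3 1.15-fold higher, against 6.96-fold for Cnn1. Actg1, the cytoplasmic relative of Actg2, was 1.48-fold higher. Actc1, the actin of cardiac muscle, was 10.1-fold higher, at 655.5 against 55.9 CPM. Beside this, 4 cells had 3 or more of 9 cardiomyocyte markers called, and in one of them, C722 of series 7 with high Acta2, these summed to 45892 CPM; their part in the Actc1 value was not tested. Without those 4 cells all 6 members remained at least 2-fold higher, at 12.7-fold for Myh11 and 6.81-fold for Cnn1.

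Likeness in pattern was measured for each member by rank correlation (Spearman) of log2(CPM + 1) over cells within a name series, with the median taken over the series in which the member was at 10 CPM or more in at least 5 cells. Cells of a series differ in depth, and whether they share a library preparation is not given, so the values are a description. Myh11, over 2 series, was most like Lmod1 (0.63), Myom1 (0.62), Fblim1 (0.60), Eln (0.59), which encodes elastin, and Acta2 (0.56). Lmod1, also over 2 series, was most like Myh11 (0.63), followed by Myom1, Acta2, Fblim1 and Fgl2, each at 0.59. Mylk, over 3 series, was most like Tagln, Fgl2 and Lmod1 (each 0.51), Myh11 (0.50) and Actg2 (0.49). Cnn1, over 7 series, was most like Acta2 (0.55), Tagln and Myl9 (each 0.50), Actg2 (0.42) and Lox (0.38), which encodes lysyl oxidase. Actg2, over 6 series, was most like Acta2 (0.49), Tagln and Cnn1 (each 0.47), Myl9 (0.45) and Myl6 (0.43). Smtn stood apart: over 7 series its most like genes were Lsp1 (0.32), Tdp1 and Espl1 (each 0.29), Mgat1 (0.28) and Gpc6 (0.26), with no gene of the contractile lists among them, and it had a median of 0.25 with Acta2. The median over all genes was between -0.01 and 0.05 for each of the 6.

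Cells with 3 or more of the genes were set beside cells with none in series 1, 2 and 3, the series with at least 5 of each. The cells were chosen by their own contractile genes, so this describes them and is no independent result. Among 8847 genes other than the members, 6.83% were 2-fold or more higher and 11.8% were 2-fold or more lower. Of 14 earlier contractile genes 10 were higher and 0 lower, led by Acta2 at 19.3-fold (5669 against 284.2 CPM), Tagln at 11.2-fold, Myl9 at 7.54-fold and Tpm2 at 5.75-fold. Of 8 mesenchyme genes 0 were higher and 5 lower: Dcn, which encodes decorin, at 0.231-fold, Twist1 at 0.252-fold, Pdgfra at 0.326-fold, Lum at 0.405-fold and Postn at 0.472-fold. Twist1 was also called in smaller shares in each series. Pdgfra was called in 1 of 9 against 14 of 25 cells in series 1. In series 2 it was 7 of 13 against 9 of 16, and in series 3 it was 5 of 6 against 17 of 24. Lum was called in smaller shares in series 1 and 2, but in 6 of 6 against 20 of 24 in series 3. Dcn was called in all of these cells in series 1 and in smaller shares in series 2 and 3. Postn was called in 97.2% and 96.7% over all name series. Of 12 regulators 1 was higher and 1 lower, close to the background: Mkl1, a partner of serum response factor, at 2.90-fold, and Klf4 at 0.493-fold. Klf4 was called in similar shares over all name series, 36.1% of cells with 3 or more of the genes (20.8% to 53.8%) and 34.4% of cells with none (26.1% to 43.6%). Myocd was at 1.75-fold. The channel and receptor list had 2 of 7 higher, Itga8, an integrin of smooth muscle, at 2.73-fold and Gucy1a3 at 2.87-fold.

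Marker genes of other cell types were read in the same 3 series. Of these, 2 of 4 pericyte genes (Rgs5 and Cspg4) and 2 of 2 cardiomyocyte genes (Tnnt2 and Actc1) were 2-fold or more higher. In the pericyte and cardiomyocyte lists 0 were lower. The glia gene Ednrb was lower, at 0.0434-fold (3.63 against 304.2 CPM). The Actc1 difference (27.3 against 0.731 CPM) rests on few cells. It was called in 1 of 9 against 0 of 25 cells in series 1, 1 of 13 against 1 of 16 in series 2 and 0 of 6 against 0 of 24 in series 3. The marker lists were also summed over all 7 name series, which adds 8 cells of series 4 to 7 to those with 3 or more of the genes. The 6 pericyte markers summed to 0 to 3225 CPM with a median of 343.1 in the 36 cells with 3 or more of the genes, and to 0 to 2066 CPM with a median of 105.3 in the cells with none. Rgs5, a pericyte gene also found in arterial smooth muscle, was called in 12 of 13 such cells against 4 of 16 cells with none in series 2, but in 1 of 9 against 4 of 25 in series 1 and in 1 of 6 against 8 of 24 in series 3. The 9 cardiomyocyte markers summed to 0 to 1289 CPM, with a median of 22.3, against 0 to 1858 CPM and a median of 0.297. Tnnt2 was called in 14 of the 36 cells, 38.9% (23.1% to 56.5%), against 8.20% of the cells with none (4.00% to 14.6%), while Myl7, Nkx2-5 and Ttn were called in none. Of the glia markers, Sox10, Foxd3 and Erbb3 were called in none of the 36, Ednrb and Fabp7 were each called in at least 1, and no cell had more than 2 of the list. The 3 epicardial markers in the table summed to at most 2.97 CPM, and the 4 endothelial ones to at most 862.0 CPM with a median of 0.720. The part of pericyte and cardiomyocyte genes in these results was not tested.

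Sox10, a gene of the early neural crest and its glia, marked 12 cells, with a median of 1620850 reads, which were set beside all cells. A median of 5 of the 8 mesenchyme genes was called in them, so they are not cleanly another kind of cell. Smtn was called in 4 of them, 33.3% (9.92% to 65.1%), against 24.5% of all cells (19.7% to 29.8%), with overlapping intervals. Myh11, Lmod1 and Cnn1 were each called in 1 of the 12 (8.33%, 0.211% to 38.5%), Actg2 in 2 (16.7%, 2.09% to 48.4%) and Mylk in 0, which allows up to 26.5%. For Cnn1 this compares with 38.1% of all cells, and the intervals of both shares overlapped.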

How the data were processed

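RNA of 294 single cells was sequenced. Per the labels' protocols, cells were captured on Fluidigm C1 chips, cDNA was made with a SMARTer v4 kit and libraries with Nextera XT, and pairs of 50-base reads came from an Illumina HiSeq. No molecular identifiers are named. Per the submitters' processing notes, HISAT2 2.1.0, featureCounts and Seurat were used with build mm10. The raw table deposited by the authors holds counts, whole reads per gene, for 15124 genes. The second deposited table holds a score per gene (14051 genes), a depth-corrected whole number that the authors named SCT. It served only as an alternative.

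Counts were scaled to 1000000 reads per cell (CPM), with Python 3.11.15, numpy 2.4.6, pandas 2.3.3, scipy 1.17.1 and matplotlib 3.10.9. All 294 cells form 1 group, so no test was run. In the comparisons by Acta2 and by number of members, a 2-fold difference of means with 10 CPM added to both was called, among genes at 10 CPM in at least 10% of cells, with equal weight to each name series with at least 5 cells on both sides. The text names the 6 members, their close relatives and overlapping genes, for each member the 5 genes of highest likeness, and the fixed early contractile and regulator lists; genes of other lists that passed 2-fold were named after their values were seen. For likeness, genes that changed sign between series were left out. Scripts were tested on simulated data. Loci and exon lengths come from GENCODE M21 on GRCm38 and promoters from RefSeq on GRCm38.p6, in which 4 of the 6 members were matched. No list or comparison is independent of the data: the members and lists were chosen with earlier results of these data known. The Acta2 range of 1000 to 5000 CPM, the comparison of cells with 3 or more of the genes with cells with none, and the exclusions of shallow cells and of cells with cardiomyocyte markers were added after values had been seen. Blood markers were listed, but 0 of 5 are rows of the table. Some results are not reported here.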

Additional observations from a re-analysis of the deposited data

How the results depend on the processing

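The share of cells with 3 or more of the genes, 12.2%, was 18.7% with 10 CPM as the call level in every name series, 7.14% with 100 CPM in every series, 24.5% with 5 reads and 36.4% with any value in the depth-corrected table. It was 12.5% with each cell thinned to 286313 reads, which left out 30 cells (7, 10, 4, 3, 5, 0 and 1 in series 1 to 7). The share with none of the genes, 41.5%, was 56.1% with 100 CPM in every series, 32.99% with 5 reads and 22.4% in the depth-corrected table. Leaving out each name series in turn gave 9.35% to 13.5% for the first share and 38.3% to 44.8% for the second. All 15 pairs stayed above the product under the 9 alternatives tried. The 6 genes that were 2-fold higher with high Acta2 were 2 when only genes called in 30% of cells were kept, because 4 of the 6 were then not tested, and 5 to 6 with a name series left out. Of the 30 genes named for likeness, 8 were named again with all cells as 1 stratum, 17 with genes called in 30% of cells and 21 in the depth-corrected table. The share of a single gene moved beyond its interval in 23 of 84 alternatives, nearly all of them other call levels or the depth-corrected table: with 1 read, Myh11 was found in 26.9% and Cnn1 in 57.8% of cells. The added exclusions gave 11.7% of cells with 3 or more of the genes without the 4 shallowest cells, and 12.1% without those with cardiomyocyte markers. Few calls rested on under 5 reads, from 0 for Actg2 to 2 for Cnn1, Lmod1 and Smtn. No paired analysis was possible because the cells form 1 group and no animal is named.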
